A study of Saccharomyces cerevisiae with 24 samples.

Results

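The oak strain YPS128 and the vineyard strain BC187 were compared for how 4871 barcoded overexpression (OE) plasmids changed in abundance during growth in salt. The quantity followed was the strain-by-generation difference, that is, the log2 change from generation 0 to generation 10 in YPS128 minus the same change in BC187. It used 12 of the 24 libraries of the series, with 3 replicates for each strain and generation, and 4194 of the 4871 barcode rows had enough reads to be tested. A difference above 0 means that a plasmid did better, relative to the rest of the library, in YPS128 than in BC187.

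Both strains are diploid isolates of Saccharomyces cerevisiae, YPS128 from a North American oak and BC187 from a vineyard, and each carried the MoBY 2.0 library of genes cloned from the laboratory strain S288c. Generation 0 libraries (YPS128 Gen0 and BC187 Gen0) were taken before outgrowth, and generation 10 libraries (YPS128 Gen10 and BC187 Gen10) after 10 generations in rich YPD medium with 0.7 M NaCl and G418, the drug that keeps the plasmid in the cells. Frozen stocks of transformed cells were used, and the study describes the replicates as biological triplicates. All p-values measure the spread between these cultures. Each strain is a single isolate, so a difference between the strains cannot be assigned to the lineage, and the insert is the S288c allele with its own flanking sequence in both strains. The study gives both strains a like number of plasmid copies, and a barcode can fall because cells grow more slowly or because they hold fewer copies of the plasmid. Those routes cannot be told apart in barcode reads.

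High external sodium stresses yeast both as a toxic ion and as an osmolyte. Cells answer by taking up potassium in preference to sodium through Trk1 and Trk2, pumping sodium out through the Ena ATPases, signalling through calcium, calcineurin and the Hog1 kinase, and accumulating glycerol. An extra copy of a gene in any of these routes, or in protein synthesis, secretion or membrane lipid synthesis, can help or burden a cell, and how much it does so can depend on the genetic background.

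Reads were scaled to 1000000 per library over genes that stayed at or below 50000 reads in every sample, and are called normalised reads. The fitness score of a replicate was the log2 ratio of its generation 10 normalised reads to the mean of its strain at generation 0. Generation 10 libraries of YPS128 held 20420543 to 30351288 reads, but after the dominant barcodes were set aside only 1679115 to 5010411, against 13877769 to 17680136 in BC187. The 10 most abundant barcodes took 83.1 to 91.8% of the reads in YPS128 and 4.01 to 4.40% in BC187. Replicates of YPS128 also agreed less: the median over barcodes of the SD of 3 scores was 0.70 in YPS128 and 0.09 in BC187. Within YPS128, replicate 2 stood apart, with a narrower set of scores (SD over barcodes 1.15) than replicates 1 and 3 (2.005 and 2.08).

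**Figure D1:**
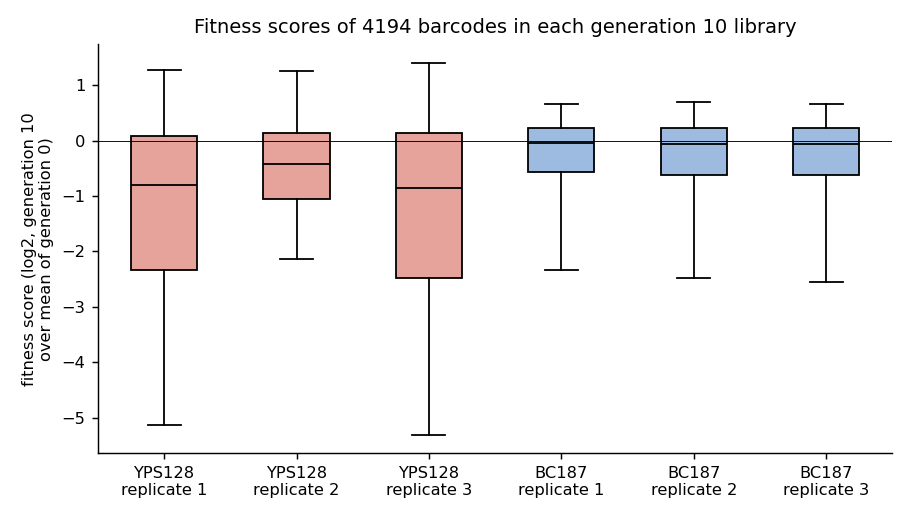
Fitness scores (log2) of the 4194 tested barcodes in each generation 10 library, with boxes for the middle of the distribution (quartiles), a line at the median and whiskers from the lowest to the highest 5% mark. The medians were -0.80, -0.43 and -0.85 in YPS128 replicates 1, 2 and 3 and between -0.07 and -0.04 in BC187, and replicate 2 of YPS128 has the shortest box of its strain.

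In the joint test, 218 barcodes were higher in YPS128 and 431 were lower (edgeR quasi-likelihood F test, FDR under 0.05), which is 5.20% and 10.3% of those tested. The difference over all tested barcodes had a median of -0.37, and was 0.13 with TMM scaling (trimmed mean of M values), under which 422 were higher (10.1%) and 165 lower (3.93%). All 218 higher calls and 165 of the 431 lower calls were made with both scalings. On totals of all reads, in which the dominant YPS128 barcodes are counted, the median was -3.39 and 26 were higher and 3708 lower. These held 26 of the 218 higher calls and all 431 lower calls. Differences are therefore relative to the library without those barcodes, and on that total 28 of the higher genes described here turned negative. A second test, limma voom with a weight for the spread of each strain and generation, called 7.11% of the genes, 166 higher (3.96%) and 132 lower (3.15%). It made the same call for 156 of the 218 and 79 of the 431, so that 3.72% and 1.88% of all genes were called by both tests. A gene that this second test did not call is marked as such below. In 431 genes (10.3%) all 3 YPS128 scores lay above all 3 of BC187, and in 1654 (39.4%) below them. Without YPS128 Gen10 replicate 2 the edgeR counts were 455 and 1669 (10.8% and 39.7% of 4206), without replicate 1 363 and 759, and without replicate 3 343 and 799. Leaving out any single one of the other 9 libraries gave 129 to 154 higher and 168 to 270 lower.

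**Figure D2:**
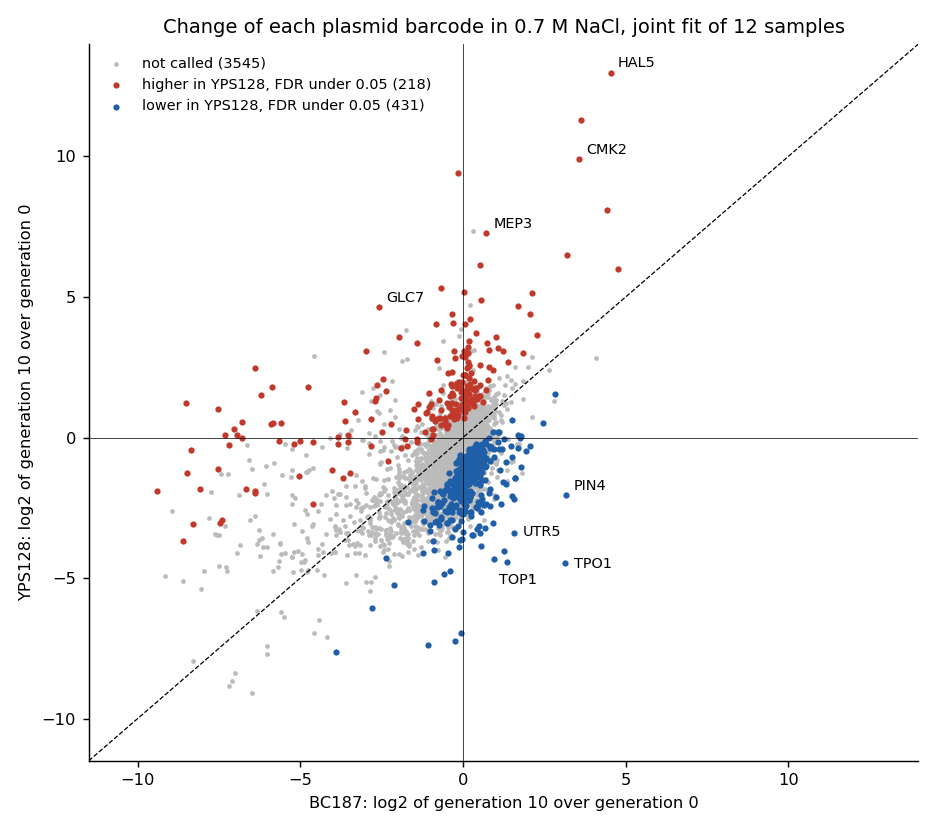
Change of each barcode from generation 0 to generation 10 (log2, joint fit) in BC187 on the horizontal axis and in YPS128 on the vertical axis, with the dashed line marking equal change. Red points are the 218 barcodes called higher in YPS128 and blue points the 431 called lower. HAL5, CMK2 and MEP3 lie far above the line and TPO1, PIN4 and UTR5 far below it.

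Sorting the called genes by what they did within each strain showed several kinds of difference. Rises and falls are, like the differences, relative to the library without the dominant barcodes. Of the 218 higher genes, 92 fell in BC187 with no call in YPS128, 51 rose in both strains, 43 rose in YPS128 with no call in BC187, and 22 rose in YPS128 and fell in BC187. Of the 431 lower genes, 188 rose in BC187 with no call in YPS128, 77 fell in both, 54 fell in YPS128 with no call in BC187, and 24 fell in YPS128 and rose in BC187. A missing call in YPS128 has to be read against its wider replicate spread. Over all tested genes 171 rose and 352 fell in YPS128, which is 4.11% and 8.47% of 4157, and 1189 rose and 1589 fell in BC187, 28.5% and 38.1% of 4166. These classes rest on fits of 6 samples, and in the joint fit of 12, which gives both strains the same spread, 431 rose and 1526 fell in YPS128 and 157 rose and 475 fell in BC187. The YPS128 counts also rested on single libraries. Without Gen10 replicate 2 they became 375 and 1636, and without any one of the Gen0 libraries 40 to 48 rose and 2 to 15 fell.

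The clearest reversal in favour of YPS128 was GLC7, the catalytic subunit of type 1 protein phosphatase, on chromosome V. Its barcode started at 201, 234 and 208 normalised reads in YPS128 and reached 4491, 3852 and 7741. In BC187 it started at 214, 218 and 264 and ended at 42.5, 37.3 and 36.9. At generation 10 the lowest YPS128 value was far above the highest BC187 value. The change was 4.64 on the log2 scale in YPS128 (FDR 0.000914) and -2.57 in BC187 (FDR 3.4e-07), a difference of 7.22 ± 0.36 (SE, FDR 1.43e-06).

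TPO1, a plasma membrane exporter of polyamines on chromosome XII, was the mirror image. It started low in both strains, at 27.5, 28.4 and 27.7 normalised reads in YPS128 and 21.3, 24.0 and 26.4 in BC187. After 10 generations YPS128 held 0.46, 2.20 and 0.60, which were 1, 11 and 1 reads, and BC187 held 200.1, 205 and 221. The difference of -7.58 ± 0.66 (FDR 4.76e-05) was the largest in the lower direction, with a fall of 4.55 in YPS128 (FDR 0.0263) and a rise of 3.12 in BC187 (FDR 1.12e-07).

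As the inserts carry native flanking sequence, the bases before the start codon (RefSeq R64, 5′ to 3′ on the strand of the gene) are shown for GLC7 and TPO1, whose plasmids moved in opposite directions in the strains, and for the calmodulin-dependent kinase gene CMK2, which rose in both. The windows are chrV:432195-432494 on the + strand for GLC7, chrXII:84504-84803 on the + strand for TPO1 and chrXV:296121-296420 on the - strand for CMK2. Capitals mark AGGGG, the core of the stress response element bound by Msn2 and Msn4, on either strand.
GLC7: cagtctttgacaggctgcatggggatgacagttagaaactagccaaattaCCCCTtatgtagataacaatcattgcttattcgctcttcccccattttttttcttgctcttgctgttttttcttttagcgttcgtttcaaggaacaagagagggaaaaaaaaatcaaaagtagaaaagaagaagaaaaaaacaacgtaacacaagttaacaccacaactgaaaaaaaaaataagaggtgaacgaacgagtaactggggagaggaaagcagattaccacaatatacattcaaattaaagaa
TPO1: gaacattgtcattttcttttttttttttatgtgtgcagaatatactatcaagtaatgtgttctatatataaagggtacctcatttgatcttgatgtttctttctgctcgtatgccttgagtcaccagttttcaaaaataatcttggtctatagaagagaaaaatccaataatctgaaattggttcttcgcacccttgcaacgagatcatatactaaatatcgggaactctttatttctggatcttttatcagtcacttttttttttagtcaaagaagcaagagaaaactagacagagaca
CMK2: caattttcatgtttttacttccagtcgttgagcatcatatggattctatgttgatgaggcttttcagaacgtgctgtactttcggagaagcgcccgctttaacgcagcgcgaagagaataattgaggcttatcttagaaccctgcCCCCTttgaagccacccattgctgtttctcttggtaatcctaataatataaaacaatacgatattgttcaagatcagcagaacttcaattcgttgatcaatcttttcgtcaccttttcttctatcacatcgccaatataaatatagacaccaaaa
GLC7 and CMK2 each hold 1 match and TPO1 holds none. Windows of this kind held AGGGG in 22.2% of all 6001 protein-coding genes with a full window, in 20.2% of the genes called higher and in 22.1% of those called lower, and these shares lie close together. The calcineurin-dependent response element, searched on both strands as GNGGCTCA and as GNGGCGCA, was in 1.03% and 1.00% of all windows, in 2 and 0 of the 218 windows of higher genes, and in 2 and 9 of the 430 windows of lower genes. Either form can overlap AGGGG where N is G. Neither was in the 3 windows printed.

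Among the other genes called in opposite directions, those that rose in YPS128 and fell in BC187 included HTS1, the histidyl-tRNA synthetase (difference 4.76 ± 0.34, FDR 1.08e-05), and SET3, a subunit of a histone deacetylase complex (4.73 ± 0.28, FDR 3.28e-06). HTS1 scored 3.56, 2.60 and 3.68 in YPS128 and -1.39, -1.36 and -1.40 in BC187. SET3 scored 4.77, 3.91 and 4.32 in YPS128 and -0.45, -0.18 and -0.43 in BC187. USV1, a stress-regulated transcription factor, differed by 4.36 ± 0.24, and CDC50, the partner subunit of a lipid flippase, by 3.56 ± 0.39. Smaller reversals in the same direction were those of PPA2, the mitochondrial inorganic pyrophosphatase (3.34 ± 0.33), NMT1, the N-myristoyl transferase (3.08 ± 0.29), SOK2, a transcription factor linked to protein kinase A (2.73 ± 0.45), and UBC4, a ubiquitin-conjugating enzyme (2.66 ± 0.23). On totals of all reads NMT1, SOK2 and UBC4 turned negative, and CDC50 (0.47, FDR 0.434) and PPA2 (0.13, FDR 0.637) lost their call. The rises in YPS128 also depended on the scaling. As shares of all reads, NMT1, SOK2, UBC4 and YJL218W were lower in every YPS128 Gen10 library than in any YPS128 Gen0 library. GLC7, SET3 and USV1 were higher in every one, and the shares of HTS1, CDC50 and PPA2 overlapped. UBC4, for example, had 2011 of 8486592 reads in Gen0 replicate 1 and 3365 of 23368162 in Gen10 replicate 1. In most of these the fall in BC187 was slight, between -0.25 for NMT1 and -0.81 for CDC50, next to rises of 2.28 to 4.39 in YPS128. YJL218W, a gene of unsettled function, differed by 7.67 ± 0.97, but its BC187 starting level was only 12.6 normalised reads.

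The opposite pattern, a fall in YPS128 with a rise in BC187, was led after TPO1 by HYP2 and PIN4. HYP2 encodes translation factor eIF5A and scored -6.69, -3.59 and -3.33 in YPS128 and 1.01, 1.42 and 1.30 in BC187 (difference -5.31 ± 0.77, FDR 0.0012). PIN4, an RNA-binding protein linked to cell cycle progression after DNA damage, scored -2.36, -1.65 and -2.20 against 3.46, 2.99 and 3.02 (-5.22 ± 0.35, FDR 6.87e-06). For both, every BC187 replicate lay above every YPS128 replicate by a wide margin. HSF1, the heat shock transcription factor (-3.13 ± 0.28), RIM20, a component of the alkaline pH response (-3.04 ± 0.33), STP2, a transcription factor of amino acid uptake (-3.07 ± 0.53), and UTP22, needed for ribosomal RNA processing (-3.07 ± 0.52), followed. The ribosomal protein genes RPS1B (-3.53 ± 0.67) and RPS27A (-2.85 ± 0.44) showed the same pattern.

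**Figure D3:**
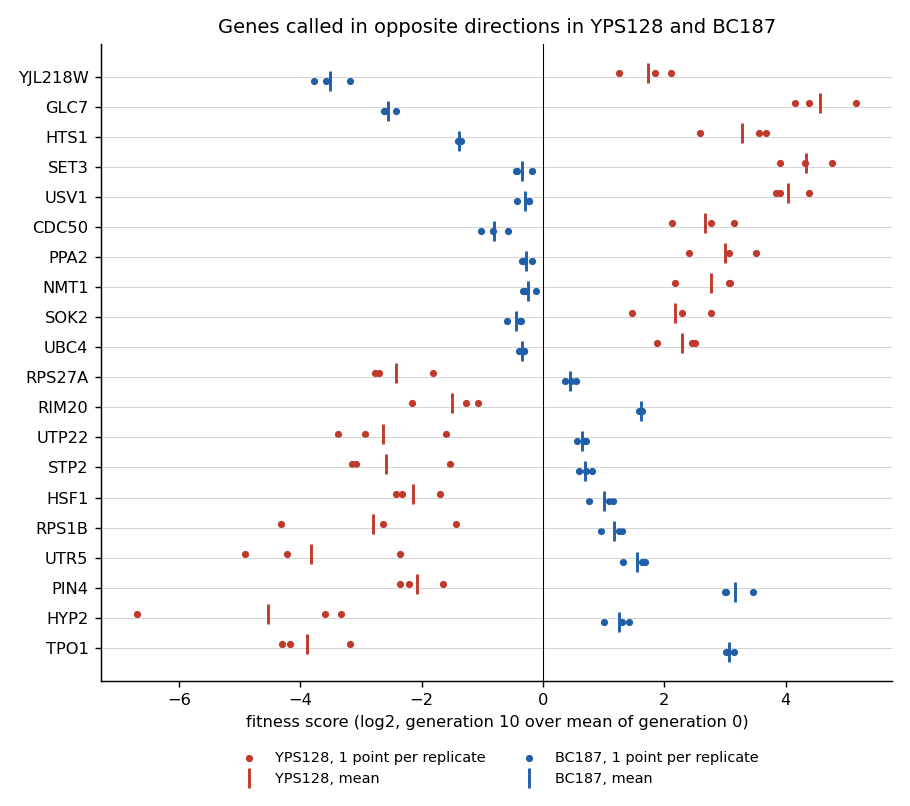
Fitness scores (log2) of the 10 genes with the largest differences in each direction among those called in opposite directions, with 1 point per replicate and a bar at the mean, YPS128 in red and BC187 in blue. All points of a gene lie on one side of 0 in YPS128 and on the other side in BC187.

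UTR5, a gene of unknown function, behaved much like HYP2. It scored -4.91, -2.36 and -4.22 in YPS128 and 1.32, 1.69 and 1.63 in BC187 (difference -4.94 ± 0.68, FDR 0.000901). The genes are divergent neighbours on chromosome V, with UTR5 on the - strand at 85045 to 85545 and HYP2 on the + strand at 85676 to 86149. The 130 bases between them lie upstream of both genes and are shown with the start codons in capitals, HYP2 as ATG at the right and UTR5 as its complement CAT at the left (RefSeq R64, chrV:85543-85678, + strand).
UTR5-HYP2: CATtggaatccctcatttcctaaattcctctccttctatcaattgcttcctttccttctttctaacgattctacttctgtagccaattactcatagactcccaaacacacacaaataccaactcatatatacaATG
The whole coding sequence of HYP2 ends 604 bases from the start of UTR5. Whether the UTR5 insert carries HYP2 was not tested, and insert ends were not used here.

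Several of the largest differences were between a large rise and a smaller one. HAL5 encodes a protein kinase that maintains the potassium transporters Trk1 and Trk2, and its barcode took 84.7, 72.9 and 79.5% of all YPS128 Gen10 reads, from 0.0752, 0.126 and 0.0820% at generation 0. In BC187 it took 1.66, 1.86 and 1.94% from 0.0850, 0.0756 and 0.0808%. In scores these were 13.22, 12.18 and 13.31 against 4.40, 4.58 and 4.64, a difference of 8.44 ± 1.09 (FDR 0.000644). As a share of all reads, with the dominant barcodes kept in the total, the log2 rise was 9.71 in YPS128 and 4.50 in BC187.

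CMK2 held 4.57, 4.28 and 4.29% of all reads in YPS128 Gen10 and 0.451, 0.481 and 0.516% in BC187 Gen10, from starting shares near 0.04% in all libraries of both strains. Its difference was 6.33 ± 0.55 (FDR 4.62e-05). MEP3, an ammonium permease, went from 110, 161 and 212 to 28477, 15403 and 30179 normalised reads in YPS128. In BC187 it went only from 163, 202 and 257 to 266, 398 and 359 (difference 6.54 ± 0.49, FDR 1.38e-05). YMR155W, which encodes a protein of unknown function, rose by 5.16 in YPS128 and was at 0.04 in BC187, where its FDR was 0.618 (difference 5.12 ± 0.37).

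A few of the largest differences rested on 1 library. YBR137W, of unsettled function, scored 10.97 in YPS128 replicate 3 but 0.51 and 0.32 in replicates 1 and 2, and -0.09, -0.22 and -0.14 in BC187. Its difference of 9.54 ± 2.81 (FDR 0.0421) was not called by voom (FDR 0.137), and was 0.57 without that library. NUP53, a nuclear pore protein, scored 6.88 in YPS128 replicate 2 and -0.12 and 0.92 in the others. Its difference was 6.01 ± 1.83 and became 1.16 without replicate 2. TOF2, a nucleolar protein of ribosomal DNA silencing, was high in all 3 (6.14, 1.69 and 7.07, against 0.47 to 0.63 in BC187), with a difference of 5.58 ± 1.18 (FDR 0.0102).

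The remaining named higher genes fell steeply in BC187. SEC18, the ATPase that drives membrane fusion in secretion, scored -7.18, -6.98 and -7.52 in BC187 and -6.06, -2.25 and -6.83 in YPS128. The strains differed by 4.93 ± 1.37 (FDR 0.0338), but by 1.70 without YPS128 Gen10 replicate 2, and voom did not call the gene (FDR 0.0865). YKL091C, a putative Sec14-like lipid-binding protein, fell by 6.67 in BC187 and had a difference of 4.84 ± 0.88. MLG1 held at most 3 reads in every BC187 Gen10 library, while YPS128 still held 47.2, 53.1 and 121 normalised reads. The ratio of its mean changes was at least 73.1-fold against a floor of 3 reads per library in BC187. That floor covers neither the spread of the YPS128 replicates nor the scaling, so it sets no lower limit on the strain difference. On totals of all reads the MLG1 difference was 4.05 (log2). Both YKL091C and MLG1 started lower in BC187, at 34.2 and 35.3 normalised reads against 203 and 178 in YPS128. A low start limits how far a fall can be followed.

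The remaining named lower genes fell in YPS128 and moved little or upward in BC187. TOP1, DNA topoisomerase I, scored -5.21, -3.11 and -6.14 against 1.07, 1.52 and 1.37 (difference -5.79 ± 1.00, FDR 0.00345). Its YPS128 Gen10 libraries held 2, 36 and 0 reads, so the score of -6.14 is a floor set by the pseudocount. PDE2, the high-affinity cAMP phosphodiesterase, scored -5.72, -3.85 and -6.08 against -0.32, -0.55 and -0.90. Its difference of -4.30 ± 0.69 (FDR 0.0023) was not called by voom (FDR 0.0697). That its replicate scores did not overlap between strains was a condition for naming it. GIS3, of unknown function (-4.42 ± 1.19), YBR220C, a putative membrane transporter (-3.92 ± 0.75), ZIM17, a mitochondrial chaperone factor (-3.78 ± 1.01), YCK2, a casein kinase I (-3.77 ± 0.95), and ZRG17, an endoplasmic reticulum zinc transporter (-3.77 ± 1.09), completed the set together with 1 barcode of CCR4. CCR4, the main cytoplasmic deadenylase, has 2 barcodes, and they went apart: the barcode CCR4_2 had -3.76 ± 1.13 (FDR 0.0454, and 0.0522 with TMM scaling), while the other had 4.84 and was not called. In GIS3, ZIM17, YCK2, ZRG17 and CCR4_2 the call was present in only 3 of the 12 fits that left out 1 library, although the difference stayed between -8.02 and -3.25 in all of them. Without YPS128 Gen10 replicate 2 it was -8.02 for GIS3, -6.55 for CCR4_2 and -6.30 for ZRG17.

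**Figure D4:**
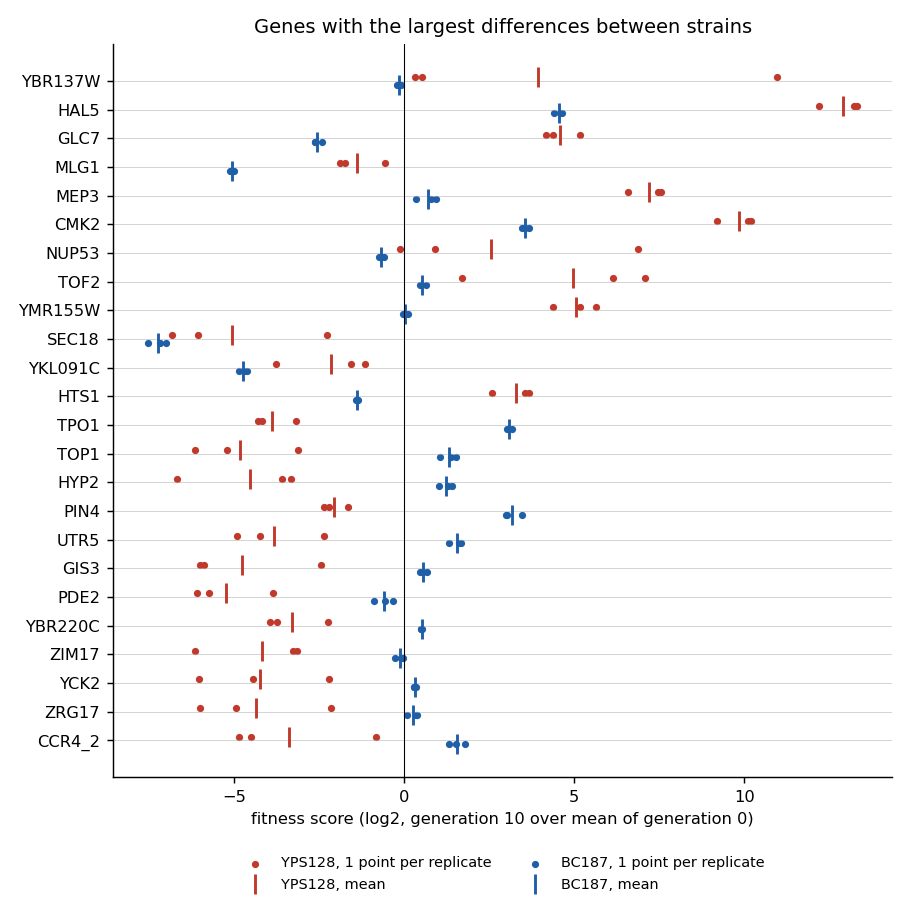
Fitness scores (log2) of the 12 genes with the largest differences in each direction, with 1 point per replicate and a bar at the mean, YPS128 in red and BC187 in blue. BC187 points lie close together, while single YPS128 points stand far from the rest for YBR137W (10.97) and NUP53 (6.88).

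Genes were then taken in functional lists. Of 14 tested barcodes of sodium, potassium and proton homeostasis, 4 were higher and 1 lower (28.6% and 7.14%, beside 5.20% and 10.3% of all genes), with a median difference of 0.52 beside -0.37 for all genes. The higher ones were HAL5, its paralogue SAT4, SIS2 and QDR2. SAT4, a kinase that also acts on Trk1 and Trk2, scored 10.08, 10.72 and 12.13 in YPS128 against 3.42, 4.35 and 2.44 in BC187 (7.68 ± 1.14, FDR 0.00134), from a low mean start of 19.4 and 42.3 normalised reads. The BC187 start of SAT4 was uneven, at 0.00143, 0.00209 and 0.00906% of all reads in replicates 1, 2 and 3, and the scores divide by its mean. SIS2, the inhibitory subunit of the Ppz1 phosphatase, rose in both strains and scored higher in YPS128 (6.86, 5.45 and 6.78 against 2.62, 3.44 and 3.33, a difference of 3.31 ± 0.47). The SIS2 difference depended on the scaling. As a share of all reads the log2 rise was nearly equal, 3.20 in YPS128 and 3.14 in BC187. QDR2, a plasma membrane transporter that affects potassium uptake (1.04 ± 0.29), and KHA1, an intracellular potassium-proton antiporter (-1.19 ± 0.34), had small differences that voom did not call, and the KHA1 call was also lost with TMM scaling (FDR 0.128).

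Of 13 tested genes of calcium and calcineurin signalling, 3 were higher and 1 lower (23.1% and 7.69%, beside 5.20% and 10.3% of all genes), and the list's median of -0.28 was close to that of all genes. The 3 higher genes rose strongly in both strains. ECM27, a putative calcium-sodium exchanger, rose by 8.08 in YPS128 and 4.42 in BC187 (difference 3.66 ± 0.41, FDR 0.000236). As a share of all reads its log2 rise was 4.78 in YPS128 and 4.37 in BC187, so that most of its difference depended on the scaling. CRZ1, the transcription factor activated by calcineurin, scored 6.05, 5.71 and 6.17 against 4.57, 4.90 and 4.75, a difference of 1.26 ± 0.28 (FDR 0.0132). The CRZ1 difference changed sign with the scaling, because as a share of all reads the log2 rise was 2.82 in YPS128 and 4.70 in BC187. PMR1, the Golgi calcium and manganese pump, fell in both strains and further in YPS128 (-2.11 ± 0.59, not called by voom or with TMM scaling).

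Of 22 tested members of the Hog1 kinase pathway, which answers osmotic stress, 2 were higher and 3 lower (9.09% and 13.6%, beside 5.20% and 10.3% of all genes), with a median of -0.54. PTC1, a phosphatase that acts on Hog1, was lower in YPS128 (-1.79 ± 0.27, FDR 0.00171), while PTP2, a tyrosine phosphatase of Hog1, was higher (1.40 ± 0.39, not called by voom). SKO1, a transcription factor acting with Hog1, was at 1.02, and the adaptor STE50 and transcription factor SMP1 at -1.10 and -1.18, all 3 without a voom call and the last 2 also without a call under TMM scaling. Of 12 tested glycerol genes, 1 was higher and 1 lower (8.33% each). GPP2, a glycerol-3-phosphatase, was higher (4.01 ± 0.82, FDR 0.00886), with scores of -0.04, 2.82 and 0.51 against -2.34, -2.39 and -2.31, and GUP1, a membrane protein linked to glycerol uptake, was at -1.27 and not called by voom or with TMM scaling. Of 4 casein kinase 2 subunits, CKA2 was called higher (1.46 ± 0.41), also without a voom call.

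Of 14 tested members of Ras and protein kinase A signalling, none was higher, beside 5.20% of all genes. In the other direction 3 were lower (21.4%, beside 10.3% of all genes), and the median was -0.41. The lower genes were PDE2, described above, GPB1, an inhibitor acting in the glucose receptor branch (-1.70 ± 0.27), and RGS2, a regulator of the G protein Gpa2 (-1.50 ± 0.17). GPB1 scored -1.30, -0.60 and -1.33 against 0.66, 0.64 and 0.70, and RGS2 -0.35, -0.28 and -0.57 against 1.24, 1.00 and 1.04. With TMM scaling 2 other members were higher, and the same count of 3 was lower.

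Proteins of mRNA decay bodies and stress granules had the highest median of the lists chosen by function, 0.57, although on totals of all reads its 8 higher members turned negative. Of 29 tested barcodes 8 were higher (27.6%, beside 5.20% of all genes) and 1 was lower. The study names this theme from the same libraries, so the count is no independent evidence. Of the higher genes, EDC3, an enhancer of decapping, rose in both strains (4.67 and 1.68, difference 2.98 ± 0.28, FDR 7.47e-05). SBP1, a translation repressor (2.56 ± 0.24), DED1, a translation initiation helicase (2.33 ± 0.55), and LSM3, part of the Lsm ring that binds the ends of RNAs (1.71 ± 0.30), did the same. PUB1 and GIS2 were of another kind. PUB1, an RNA-binding protein of stress granules, scored 0.66, 0.51 and 0.25 in YPS128 and -2.03, -2.15 and -2.29 in BC187 (2.68 ± 0.36). GIS2, a translation factor of these granules, scored 0.44, -0.20 and 0.49 against -1.80, -1.66 and -1.78 (2.03 ± 0.31). LSM4, another part of the Lsm ring, rose in YPS128 (1.96) and was at -0.02 in BC187 (FDR 0.795). SCD6, a translation repressor, was at 1.24 and -0.34, and voom did not call its difference (FDR 0.0515). PUF4, an RNA-binding protein that promotes decay, was the 1 member called lower, at 0.04 in YPS128 and 1.80 in BC187 (-1.76 ± 0.24). Members without a call lay on both sides of 0, from -1.73 for PAT1 to 1.21 for MPT5.

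Ergosterol synthesis, another theme that the study names from these libraries, split by gene. Of 23 tested barcodes 5 were higher and 4 lower (21.7% and 17.4%, beside 5.20% and 10.3% of all genes), and the median was -0.21. On totals of all reads ERG20, ERG5 and ERG4 of the higher ones turned negative. The higher ones were ERG20, the farnesyl pyrophosphate synthase (2.07 ± 0.22, with a rise in YPS128 and a fall in BC187), ERG5 (2.35 ± 0.33) and ERG4 (1.67 ± 0.31), enzymes of the last steps, and ERG26 and ERG3, a sterol dehydrogenase and a desaturase. ERG26 scored 0.68, 2.46 and -2.27 in YPS128, against -2.46, -2.68 and -2.89 in BC187, and its 3 YPS128 replicates differed in sign. ERG3 was close to 0 reads in BC187 Gen10 but started there at 8.79 normalised reads, and its scores overlapped between strains. The ratio of its mean changes was at least 46.7-fold against a floor of 3 reads per library in BC187. That floor does not cover the spread of the YPS128 replicates, so it sets no lower limit on the strain difference. The lower ones act in other places: ERG10 is the thiolase of the first step (-2.62 ± 0.38), ERG12 the mevalonate kinase (-0.82 ± 0.20), ERG1 the squalene epoxidase (-1.32 ± 0.22) and NCP1 the reductase that serves the pathway's cytochromes (-2.41 ± 0.44). Only ERG10 of these was also called by voom, and ERG12 lost its call with TMM scaling (FDR 0.382).

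Ribosomal protein genes had one of the lowest median differences of the lists. Of 117 tested barcodes 29 were lower (24.8%, beside 10.3% of all genes) and 2 higher, and their median difference was -1.32, which is -0.96 relative to all genes. With TMM scaling 17 were lower and 4 higher, and of the 29, 8 were also called by voom. The study names ribosomal genes as costly from these libraries, and here 34 of the 117 fell in YPS128 and 80 in BC187, where 8.47% and 38.1% of all genes fell. The median change in the joint fit was -2.08 in YPS128 and -0.62 in BC187. RPS1B and RPS27A, with RPS19A, RPL10, RPL13A, RPS17B, RPS7A and RPS21A, were the ones that both tests called lower. RPS7B (4.22) and RPS13 (1.72) went the other way, RPS7B from starting levels of only 5.19 and 2.63 normalised reads. Of 45 tested mitochondrial ribosomal proteins 2 were lower (4.44%, beside 10.3% of all genes) and none higher, with a median of -0.44. Neither of these 2, MRPS17 (-1.42) and MRPS18 (-0.89), was called by voom or with TMM scaling, under which 6 other members were higher.

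Of the other lists, 30 tested cytosolic chaperones held 4 lower genes (13.3%, beside 10.3% of all genes), and only HSP104, the disaggregase (-2.31 ± 0.48), was called by both tests. Among 27 genes of the proteasome list 5 were lower (18.5%) and 1 higher, PUP2 (0.95), which voom did not call, and only PRE5 (-2.42 ± 0.55), a core subunit, was called lower by both. The list was made by gene name and includes RPN14 (-1.21, called lower) and RPN4 (not called), which are not subunits. Subunits of the vacuolar proton ATPase had a median of -1.19 and genes of the cell wall integrity pathway -1.63, with 2 of 11 (18.2%) and 2 of 12 (16.7%) called lower, none higher and none of these calls shared with voom. Among 18 cytoskeleton genes 3 were higher (16.7%, beside 5.20% of all genes) and 1 lower (5.56%). PFY1, profilin, was higher (2.26 ± 0.59) together with the tropomyosins TPM1 (0.95) and TPM2 (1.07), and ARP2 was lower (-1.56). TPM2 and ARP2 were not called by voom, and ARP2 not with TMM scaling. The list of cyclins and CDC28 had 14 tested genes, 2 higher and 2 lower (14.3% each, beside 5.20% and 10.3% of all genes). SWI4, a transcription factor of cell cycle entry, was the larger of the 2 higher ones (2.53 ± 0.57, at -0.32 in YPS128 and -2.84 in BC187), and the cyclin CLN1 was at 1.26. MBP1 and CLB4 were lower there at -1.09 each, without a call by voom or with TMM scaling, and voom did not call CLN1 either.

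**Figure D5:**
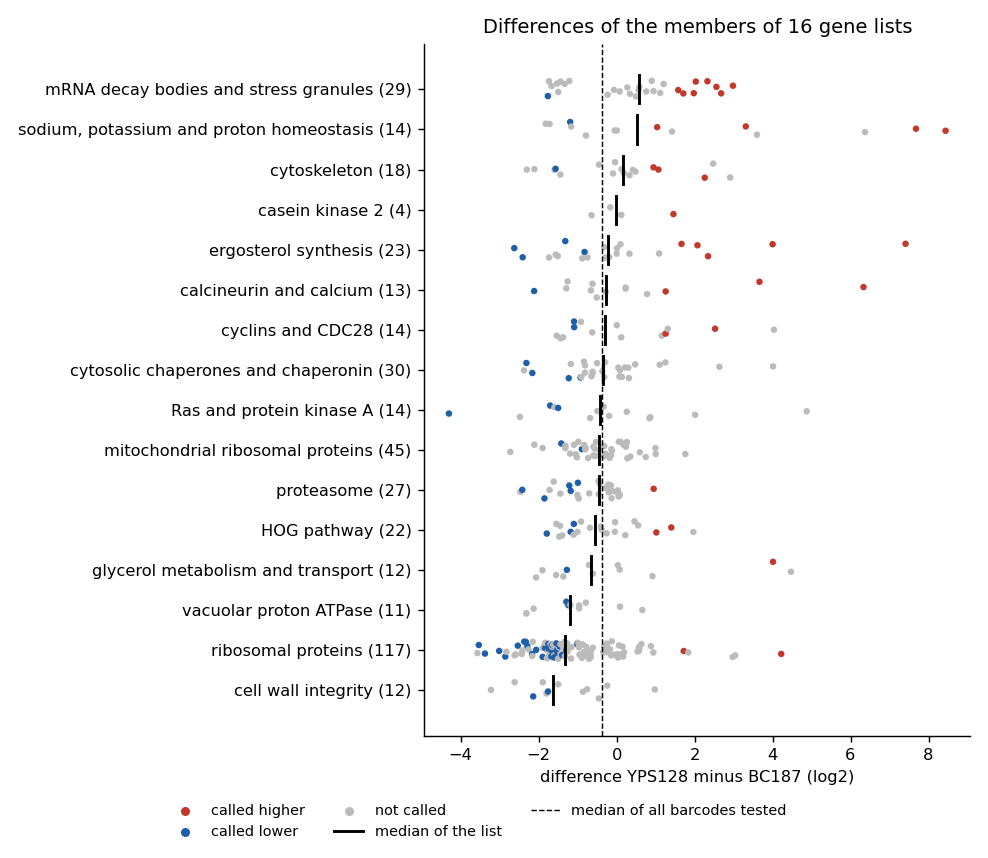
Strain difference (YPS128 minus BC187, log2) of every tested member of 16 gene lists, with the number of tested barcodes in parentheses, red for called higher, blue for called lower and grey for not called. The black bar is the median of a list, between -1.63 and 0.57, and the dashed line is the median of all tested barcodes at -0.37.

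Of 9 genes that the study singled out in these libraries, 7 were higher in YPS128 than in BC187 and none lower, which is no independent evidence of their direction. On totals of all reads 4 of the 7, QDR2, CRZ1, GCD10 and DGK1, turned negative. Beside HAL5, SAT4, CMK2, CRZ1 and QDR2 these were DGK1, the diacylglycerol kinase (2.93 ± 0.30), and GCD10, a tRNA methyltransferase subunit (1.83 ± 0.46). DGK1 scored 3.12, 2.23 and 3.15 in YPS128 and -0.03, 0.06 and -0.15 in BC187.

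The median coding length was 1190 bp for higher genes and 1131 bp for lower ones, beside 1152 bp for all tested. At generation 0, 38 of the 218 higher genes had under 20 normalised reads in one or both strains, as had 14 of the 431 lower genes and 295 of all 4194. In 26 of the 218 the BC187 Gen10 libraries held at most 3 reads each, and in 8 of the 431 the YPS128 Gen10 libraries did. The starting pools themselves differed between strains in 2210 of 4185 tested barcodes (52.8%, edgeR, FDR under 0.05). Scores are relative to each strain's own start.

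The same difference was computed for the other 2 strains, NCYC3290 minus BY4743, which share no library with YPS128 and BC187 but differ from each other in plasmid copies. Its median over 4198 genes was -1.48, with 108 higher (2.57%) and 1288 lower (30.7%). The differences of the 2 pairs had a Pearson correlation of 0.16 across 4181 genes, which are not independent replicates. Of the 218 genes called higher in YPS128 than in BC187, 31 were called higher and 41 lower in that pair. Of the 431 called lower, 4 were called higher and 161 lower there. HAL5 (11.78), SAT4 (11.14), CMK2 (8.05), SIS2 (13.15), SOK2 (7.28) and USV1 (4.95) were higher in that pair as well. GLC7 (-1.39, FDR 0.232), MEP3 (0.83, FDR 0.272) and ECM27 (-1.61, FDR 0.0884) were not called there. HTS1 (-5.35) and CDC50 (-4.07) were called lower in NCYC3290 than in BY4743, although they were higher in YPS128 than in BC187. Relative to the median of that pair they were at -3.87 and -2.59. Depth limits falls in NCYC3290, whose Gen10 libraries had a median of 14 to 48 reads per barcode, against 2116 to 3445 in BY4743 Gen10.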

How the data were processed

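Pooled plasmid barcodes were sequenced as single-end reads from YPS128 and BC187 before and after outgrowth in NaCl. The deposited table holds raw counts per barcode, which the authors made by assigning reads to barcodes. The tool they used for this is not given in the sources used here. No molecular identifiers are described, so limits such as the floor of 3 reads cover counting error only. Of the 4871 rows 594 had no reads in the 12 libraries. Groups and replicate numbers were read from the sample titles, and 0 columns were left without a sample. Symbols and coordinates were taken from RefSeq R64 for 4811 of 4817 genes.

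After the study's approach, library size was the total over genes with at most 50000 reads in all 24 samples. Counts were tested with edgeR 4.0.16 in R 4.3.3 (filterByExpr, minimum count 10, quasi-likelihood F test, Benjamini-Hochberg FDR over all genes tested), in 1 fit of 12 samples for the difference between strains and in fits of 6 samples within a strain. The joint fit gives every group the same spread, while YPS128 Gen10 varied most. Calls also made by limma 3.58.1 voom with weights per group are therefore given beside it. Fitness scores used a pseudocount of 1 normalised read. They have no test, since 3 replicates against 3 cannot go below p = 0.10 in an exact permutation test.

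Genes were named by rule: the 12 largest differences in each direction with an FDR under 0.05, at least 20 normalised reads at generation 0 in both strains and scores that did not overlap between strains, up to 10 genes in each direction called in opposite directions in the strains, and members of 17 gene lists. The comparison, the genes and the lists were chosen with earlier results of these data known. Alternatives were TMM and RLE factors, totals of all reads or over the 12 samples, DESeq2 1.42.0, a likelihood-ratio test, voom, all 24 samples, other filters and pseudocounts, a replicate block and leaving out each library. Calls shared by edgeR and voom, the block with TMM factors and TMM scaling of the other pair were added after seeing the data. Motifs and intervals were read from the R64 genome with Python 3.11.15.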

Additional observations from a re-analysis of the deposited data

Results flagged for a closer look

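The change over 10 generations differed between the strains by the test of the difference itself in 218 genes that were higher in YPS128 and 431 that were lower (edgeR quasi-likelihood F test of the interaction, FDR under 0.05).

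Of the higher genes, 22 rose in YPS128 and fell in BC187, and of the lower genes, 24 did the reverse. These rises and falls are relative to the library without the dominant barcodes. The 10 largest differences (log2, YPS128 minus BC187) among the first were those of YJL218W (7.67), GLC7 (7.22), HTS1 (4.76), SET3 (4.73), USV1 (4.36), CDC50 (3.56), PPA2 (3.34), NMT1 (3.08), SOK2 (2.73) and UBC4 (2.66). Among the second they were those of TPO1 (-7.58), HYP2 (-5.31), PIN4 (-5.22), UTR5 (-4.94), RPS1B (-3.53), HSF1 (-3.13), STP2 (-3.07), UTP22 (-3.07), RIM20 (-3.04) and RPS27A (-2.85). In each of these 20 genes all 3 replicate scores of YPS128 had one sign and all 3 of BC187 the other, and both edgeR and voom called the difference.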

How the results depend on the processing

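The counts of calls moved with the scaling and with single libraries, and the cause was not tested. Higher and lower genes numbered 422 and 165 with TMM factors, 388 and 169 with RLE factors, 595 and 342 with DESeq2, 26 and 3708 on totals of all reads, 316 and 648 with the likelihood-ratio test, 166 and 132 with voom and 96 and 72 with all 24 samples. The median difference was 0.13 with TMM and with RLE factors, 0.14 with DESeq2 and -3.39 on all reads. DESeq2 and edgeR with the main, TMM and RLE scaling shared 214 higher and 158 lower calls, and voom as well shared 153 and 60. Both edgeR and voom called 156 and 79. Leaving out 1 library at a time gave 129 to 455 higher genes, 168 to 1669 lower genes and medians of -0.59 to -0.34, and 121 higher and 163 lower genes were called in every such fit. Totals over the 12 samples and the other filters kept all counts within 1.5 times.

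Within YPS128 462 genes rose and 190 fell with TMM factors, 431 and 1526 in the joint fit, and 40 to 375 and 2 to 1636 without 1 library. In BC187 the joint fit gave 157 and 475, and leaving out 1 library 971 to 1141 and 1421 to 1564. Genes whose 3 YPS128 scores lay all above or all below those of BC187 numbered 431 and 1654, and 937 and 915 with TMM factors. The other pair had 321 higher and 549 lower with TMM factors.

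With replicate number as a block within strain, 112 genes were higher and 180 lower, and 179 and 59 with TMM factors too. Generation 0 and generation 10 libraries of the same number did not deviate together: their correlations were -0.08, -0.12 and 0.12 in YPS128 and 0.01, -0.11 and -0.34 in BC187. Such correlations cannot show whether libraries of the same number came from the same culture. With the block, 10 of the 38 genes named by rank lost their call, HAL5 among them (edgeR quasi-likelihood F test, FDR 0.0662).

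Of the 38 genes named by rank, 30 kept their call in each of the 12 fits without 1 library. On totals of all reads the differences of 28 named genes or list members turned negative, the dominant barcodes being part of that total: TPM1 (-2.17), SKO1 (-2.12), TPM2 (-2.09), QDR2 (-2.07), PUP2 (-2.03), CRZ1 (-1.88), PTP2 (-1.83), CLN1 (-1.79), CKA2 (-1.78), SCD6 (-1.55), RPS13 (-1.54), ERG4 (-1.53), LSM3 (-1.48), GCD10 (-1.43), LSM4 (-1.15), GIS2 (-1.14), ERG20 (-1.005), DED1 (-0.89), ERG5 (-0.87), SBP1 (-0.59), PFY1 (-0.58), UBC4 (-0.50), SWI4 (-0.45), PUB1 (-0.38), SOK2 (-0.32), DGK1 (-0.27), EDC3 (-0.18) and NMT1 (-0.12). Depth limits falls in YPS128 most, where 3 reads at generation 10 equalled 0.60 to 1.79 normalised reads, against 0.17 to 0.22 in BC187.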

Other observations

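Of 41 genes with 2 tested barcodes, 28 had both differences of the same sign, and the median gap between the barcodes was 0.59 (log2). Only AIM2 had both barcodes called, each lower (-0.88 and -0.89), and in 11 genes 1 barcode was called. The widest gaps were in RRP7 (-7.02, not called, and 1.63, called higher) and CCR4. These genes were picked after their values were seen.

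Among 4132 pairs of neighbouring tested genes on a chromosome, 107 had both members called, 65 of them in the same direction. Of all tested genes 15.5% were called, 5.20% higher and 10.3% lower, so some neighbours share a call by coincidence. Whether 107 and 65 exceed that was not tested. Of the 107 pairs, 30 were divergent, like UTR5 and HYP2, but divergent pairs among all 4132 were not counted for comparison. Across all pairs the correlation between the differences of neighbours was 0.03, as a description over pairs that share genes.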
